A study of Danio rerio with 6 samples.

Results

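Annexins are proteins that attach to membranes when calcium rises, each through a conserved core that grips acidic phospholipids, and they take part in membrane repair, vesicle traffic and the clearing of dying cells. S100 proteins are small calcium sensors of the EF-hand type that act mostly as pairs, and several of them bind annexins; in mammals the S100A10 protein pairs with annexin A2 at the plasma membrane. In liver and its tumours both families have been studied in hepatocytes, bile duct cells and infiltrating blood cells, and in zebrafish annexin A4 is the antigen of 2F11, an antibody used to stain bile ducts. The members described here are the genes whose symbol begins with anxa and a digit or with s100, together with icn (ictacalcin) and icn2, which are S100 proteins of fish. The rule found 31 genes, 17 annexins and 14 S100 genes, among 30628 genes in the table.

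The data come from RNA sequencing of zebrafish (Danio rerio) livers. In the ATG5 group (n = 3) the line is Tg(fabp10a:mCherry-T2A-LexPR;LexOP:ATG5WT): the fabp10a promoter, active in hepatocytes, drives mCherry and the LexPR activator, which switches on human ATG5, an autophagy gene, when mifepristone is present. In the WT group (n = 3) the fish are wild type. Both groups received mifepristone and both carry the time label 2 wpi; the age and sex of the fish are not in the labels. The series calls the tissue of the transgenic fish hepatocellular carcinoma and that of the controls normal liver. Since no fish carried the transgene without the drug, ATG5 expression and line background cannot be told apart. Nothing in the labels tells separate fish from pools, so p-values measure the spread between these 6 libraries only.

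Each library held 33669057 to 44763325 estimated counts. Levels are CPM, counts scaled to a common library size, after TMM scaling, which equalises the bulk of genes rather than the total, and a call means an edgeR adjusted p under 0.05 over all 20366 tested genes. Markers of hepatocytes were abundant in all libraries, with 10 genes summing to 66790 to 98890 CPM in ATG5 livers against 224000 to 272200 CPM in WT livers. Of the 10, 8 were called lower, where 13.3% of all tested genes were called lower. The scaling matters: with library sizes only, the median log2 fold of all tested genes moved up by 0.94, so every direction below is relative to TMM scaling. In whole tissue, fewer cells of a type and less RNA per cell cannot be told apart.

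More annexin and S100 genes were called higher than lower in ATG5 livers. Of the 31 members 22 passed the filter on low counts, 8 of them (36.4%) were called higher and 2 lower, and 12 were not called. Over all tested genes 17.3% were called higher and 13.3% lower, and the difference between the members and other genes was not tested. The annexins gave 4 higher and 1 lower of 12 tested, with a median log2 fold of 0.86, and the S100 genes 4 higher and 1 lower of 10 tested, with a median of 0.83, where the median of all tested genes was 0.03. These medians moved with the libraries used and with the filter. The annexin median was 0.46 without ATG5 replicate 1 (21 members tested) and 1.39 without WT replicate 2 (24 members tested). The S100 median was 0.30 without ATG5 replicate 2 (22 members tested) and 1.76 with a stricter filter (16 members tested). The filter was applied anew each time, so the genes behind a median could change as well as their values. All 8 higher members also had a log2 fold of at least 1, and 14.2% of all tested genes were both called higher and past that fold. Every ATG5 library lay above every WT library for 10 of the 22 and below for 2, against 27.1% and 22.2% of all tested genes. Some of the 10 passed the filter only through the ATG5 group, where they were high. Examples are anxa5a (1, 0 and 0 WT counts) and anxa2b (0, 5 and 4 WT counts). The counts of higher and non-overlapping members are therefore not independent of the filter, which was the same for all genes. With library sizes only, 9 annexins and 5 S100 genes were called higher and 0 members lower, where 53.3% of all tested genes were called higher and 2.84% lower. Members that failed the filter had at most 32 counts in any library and are given at the end.

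**Figure D1:**
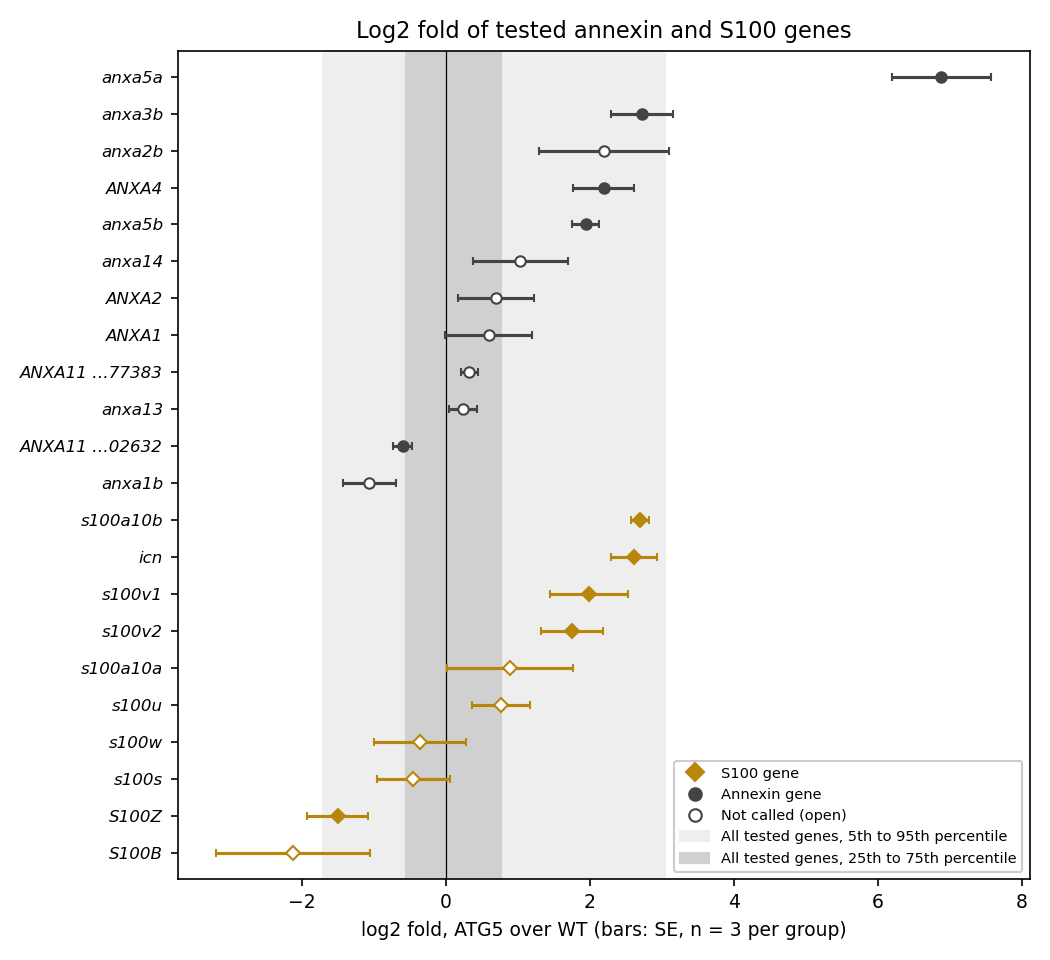
Log2 fold (ATG5 over WT, x axis) of the 12 tested annexin and 10 tested S100 genes, with bars for the standard error (n = 3 per group); filled points were called at an adjusted p under 0.05. Grey bands hold the central part of all tested genes, and anxa5a, anxa3b, s100a10b and icn have the largest log2 folds among the called members.

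ANXA4, the bile duct antigen noted above, stood at 1118, 888 and 1976 CPM in the ATG5 livers, against 335, 200.4 and 335 CPM in the WT livers. All 3 ATG5 libraries lay above all 3 WT libraries, and ATG5 replicate 3 was the highest. The log2 fold was 2.19 ± 0.42 (SE, n = 3 per group), a 4.57-fold rise (edgeR adjusted p = 0.00888). Without any scaling factor the gene took 0.152%, 0.13% and 0.263% of all estimated counts in the ATG5 libraries and 0.0229%, 0.0153% and 0.024% in the WT libraries, so the groups were apart on that scale too. The other 16 annexins together took 0.0437% to 0.0453% of counts in ATG5 livers and 0.0194% to 0.0218% in WT livers. These shares are of reads and are not corrected for transcript length. With library sizes only, the median log2 fold of all tested genes was 0.97, against 0.03 with TMM scaling. Unscaled shares therefore favour ATG5 livers, and the shares of ANXA4 and of the other 16 are not corrected for that shift. The most abundant of the other 16, ANXA11 ENSDARG00000002632, was called lower with TMM scaling.

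Epithelial markers moved beside ANXA4. Of 13 biliary and epithelial markers 9 (69.2%) were called higher and none lower, against 17.3% and 13.3% of all tested genes. They summed to 2773 to 3028 CPM in ATG5 livers and 976 to 1501 CPM in WT livers. Most of that sum came from the keratin genes krt8 (means of 1034 CPM in ATG5 and 508 CPM in WT livers) and krt18a.1 (1141 and 409 CPM). Not called were TM4SF4, krt18b, krt4 and krt5, with log2 folds of 0.92, 0.37, -0.63 and 1.25. The epithelial junction gene cldn7b averaged 99.8 ± 49.1 CPM in ATG5 livers and 2.36 ± 0.34 CPM in WT livers (SD, n = 3 each). SOX9, a transcription factor of bile duct cells, is the symbol of 2 gene IDs. SOX9 ENSDARG00000043923 averaged 36.1 ± 4.68 CPM in ATG5 livers and 16.6 ± 3.3 CPM in WT livers. SOX9 ENSDARG00000003293 averaged 7.04 ± 2.44 and 1.03 ± 0.96 CPM and was also called higher. The adhesion gene epcam had a log2 fold of 1.98 ± 0.32 and the keratin gene krt18a.1 one of 1.48 ± 0.26 (edgeR adjusted p = 0.00483 and 0.00851). The part of bile duct or other epithelial cells in the annexin values was not tested.

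The gene anxa3b, one of the zebrafish genes for annexin A3, a phospholipid-binding annexin, had 85.1, 61.9 and 97.8 CPM in ATG5 livers, against 18 CPM, 7.15 CPM and 11.8 CPM in WT livers. The groups did not overlap, and the log2 fold was 2.73 ± 0.43 (edgeR adjusted p = 0.00423). Its paralogue ANXA3, for which RefSeq uses the name anxa3a, was all but absent, with 7 counts over the ATG5 libraries and 1 over the WT libraries.

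Both annexin A5 genes rose. Annexin A5 binds phosphatidylserine, the lipid that dying cells expose. Estimated CPM of anxa5b were 8.36, 7.85 and 5.84 in ATG5 livers, against 1.68, 2.04 and 2.02 in WT livers, a log2 fold of 1.94 ± 0.18 (edgeR adjusted p = 0.0027). The groups were well apart, with little spread in WT. Its paralogue anxa5a was expressed at a low level in ATG5 livers and was nearly silent in WT livers, with 33, 108 and 153 counts in the ATG5 libraries, against 1, 0 and 0 counts in the WT libraries. ATG5 replicate 1 was the lowest of its group. The ratio of its scaled counts was 151-fold, with an exact 95% counting interval of 26.9-fold to 5986-fold. That interval pools the libraries of each group and covers counting error only, not the spread between libraries. The edgeR fit called anxa5a higher (adjusted p = 0.00653).

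Of the annexin A11 genes 1 was called lower and the other was not called. Annexin A11 binds the calcium sensor ALG-2 and is known for carrying RNA granules on lysosomes. The symbol ANXA11 belongs to a pair of gene IDs in the names table, which does not say which is anxa11a and which anxa11b. ANXA11 ENSDARG00000002632 had 122, 124 and 139 CPM in ATG5 livers, against 226, 185 and 172 CPM in WT livers, a log2 fold of -0.60 ± 0.13 (edgeR adjusted p = 0.0391). That call did not last when any 1 library was left out (adjusted p = 0.0507 to 0.112), and with library sizes only the log2 fold turned to 0.35 (adjusted p = 0.108). ANXA11 ENSDARG00000077383 had 64.3, 67 and 73.3 CPM in ATG5 livers, against 48.3, 53.5 and 61.3 CPM in WT livers, a log2 fold of 0.33 ± 0.11 that was not called (edgeR adjusted p = 0.146).

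**Figure D2:**
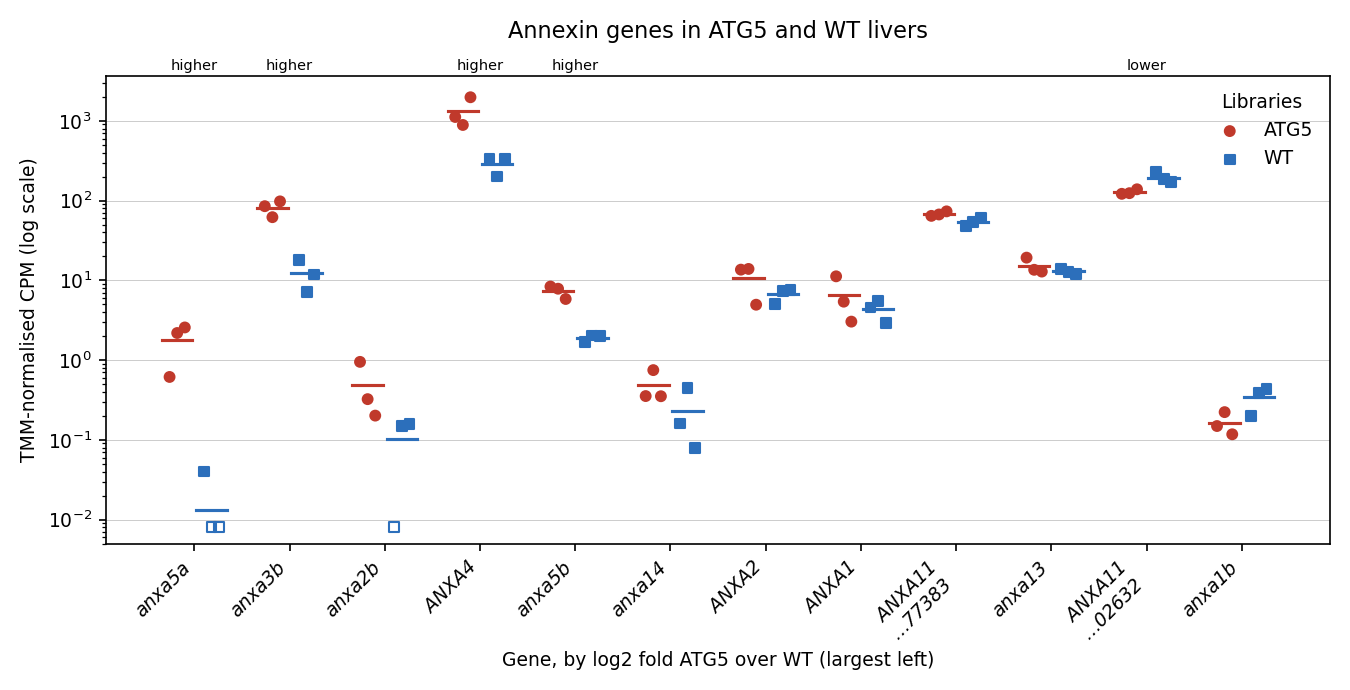
TMM-normalised CPM (log scale) of the 12 tested annexin genes, 1 point per library, ATG5 circles left of WT squares, bars at the group means; open squares at the foot mark libraries at 0 and the word above a gene gives its call. ANXA4 runs from 888 to 1976 CPM in ATG5 livers, and anxa5a has 2 WT libraries at 0.

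Several well-known annexins were not called. ANXA1, in mammals a glucocorticoid-regulated restraint on inflammation and for which RefSeq uses the name anxa1a, had 11.2, 5.4 and 3.04 CPM in ATG5 livers, against 4.56, 5.57 and 2.9 CPM in WT livers, and the groups overlapped. Its log2 fold was 0.59 ± 0.61 (edgeR adjusted p = 0.418), and without ATG5 replicate 1 it turned to -0.07. ANXA2, the mammalian partner of S100A10 and anxa2a in RefSeq, had 13.6, 13.9 and 4.95 CPM in ATG5 livers, against 5.08, 7.36 and 7.62 CPM in WT livers. ATG5 replicate 3 fell below every WT library, and the log2 fold was 0.69 ± 0.52 (edgeR adjusted p = 0.253). Without that replicate it was 1.02 (adjusted p = 0.0383), the only call among the 6 fits with a library left out (adjusted p up to 0.525).

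Among the other annexins tested, anxa13, which in mammals marks intestinal and kidney epithelium, averaged 15.2 ± 3.5 CPM in ATG5 livers and 12.9 ± 0.97 CPM in WT livers (SD, n = 3 each), a log2 fold of 0.24 ± 0.19 (edgeR adjusted p = 0.406). The remaining 3 lay below 1 CPM in every library. Of these, anxa2b had a log2 fold of 2.19 ± 0.91 and did not overlap between groups (edgeR adjusted p = 0.154), from 51, 16 and 12 counts in the ATG5 libraries against 0, 5 and 4 counts in the WT libraries. The log2 folds of anxa14 and anxa1b were 1.03 ± 0.66 and -1.06 ± 0.36 (adjusted p = 0.32 and 0.181). With library sizes only, anxa2b was called higher (log2 fold 3.09, edgeR adjusted p = 0.0408), but so were 53.3% of all tested genes. ANXA1, ANXA2, anxa13 and ANXA11 ENSDARG00000077383 gained a call on that scale as well.

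Among the S100 genes, s100a10b, a gene for the annexin A2 partner, rose with little spread. It stood at 49.2, 61.9 and 61.7 CPM in ATG5 livers, against 9.33, 9.1 and 8.29 CPM in WT livers. The groups were far apart and each was tight, with a log2 fold of 2.69 ± 0.12, a 6.47-fold rise (edgeR adjusted p = 0.000628). Its paralogue s100a10a had 1.27, 7.75 and 1.24 CPM in ATG5 livers, against 1.68, 2.27 and 1.55 CPM in WT livers. Here ATG5 replicate 2 alone was high, the other two ATG5 libraries lay below all WT libraries, and without replicate 2 the log2 fold of 0.89 ± 0.88 turned to -0.56 (edgeR adjusted p = 0.422 and 0.296). The annexin A2 gene and s100a10b did not keep their proportion: estimated counts of s100a10b were 3.61, 4.45 and 12.5 times those of ANXA2 in the ATG5 libraries, against 1.83, 1.24 and 1.09 times in the WT libraries. This pair was set side by side after its values were seen and was given no test.

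Ictacalcin, first described from the epithelia of catfish, rose as well. For icn the CPM were 94.3, 50.3 and 91.8 in ATG5 livers, against 11.1, 13.3 and 14.2 in WT livers, and no ATG5 library came near a WT one. The log2 fold was 2.61 ± 0.31, a 6.11-fold rise (edgeR adjusted p = 0.00223). The gene icn2 had 2, 0 and 21 counts in the ATG5 libraries and no count in the WT libraries, at least 3.94-fold higher than a limit of 3 counts in the WT group as a whole. Most of that rests on ATG5 replicate 3.

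The fish genes s100v1 and s100v2, whose functions are little known, were both called higher. CPM of s100v2 were 11.2, 21.1 and 23.3 in ATG5 livers, against 6.96, 3.65 and 5.91 in WT livers, a log2 fold of 1.75 ± 0.43 (edgeR adjusted p = 0.0153). For s100v1 they were 1.02, 1.86 and 2.28 in ATG5 livers, against 0.32, 0.718 and 0.238 in WT livers, a log2 fold of 1.99 ± 0.54 (edgeR adjusted p = 0.0377). For both genes the lowest ATG5 library was replicate 1, still above every WT library. The s100v1 call was lost when any single library other than WT replicate 2 was left out (adjusted p up to 0.119).

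S100Z, a calcium sensor known in mammals from spleen and blood cells, was the S100 gene called lower. It had 2.16, 0.992 and 2.06 CPM in ATG5 livers, against 4.8, 6.43 and 3.57 CPM in WT livers. The groups did not overlap and the log2 fold was -1.50 ± 0.43 (edgeR adjusted p = 0.0303). The call remained without WT replicate 3 (adjusted p = 0.0427) and was lost when any other library was left out (up to 0.0846) and with library sizes only (log2 fold -0.59, adjusted p = 0.233). S100B, known from glial cells, had 0.0745, 0.83 and 0.0671 CPM in ATG5 livers, against 2.16, 1.38 and 0.675 CPM in WT livers. ATG5 replicate 2 overlapped the WT range, and the log2 fold of -2.12 ± 1.07 was not called (edgeR adjusted p = 0.18). Without that replicate it was -4.26 (adjusted p = 0.0182). This was the only call among the 6 fits with a library left out (edgeR adjusted p up to 0.378). ATG5 replicate 2 was the highest ATG5 library for S100B and for s100a10a alike.

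**Figure D3:**
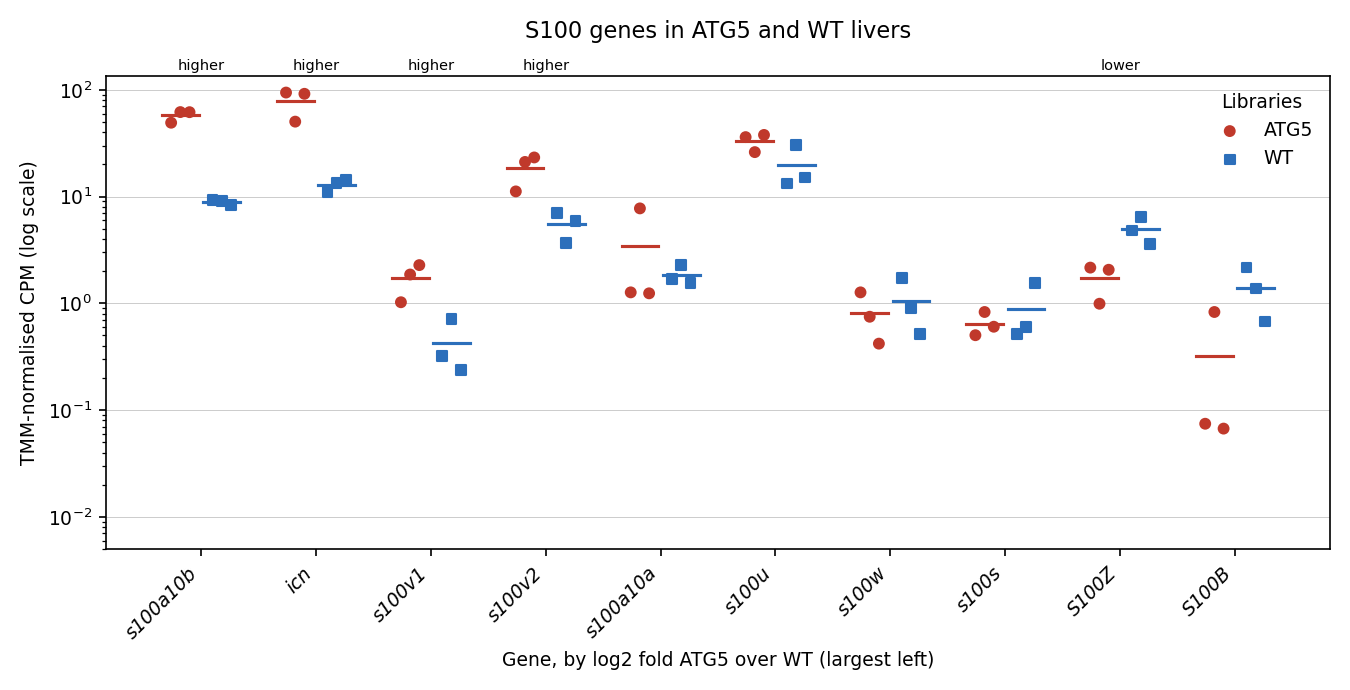
TMM-normalised CPM (log scale) of the 10 tested S100 genes, 1 point per library, ATG5 circles left of WT squares, bars at the group means; the word above a gene gives its call. The ATG5 libraries of s100a10b (49.2 to 61.9 CPM) and icn (50.3 to 94.3 CPM) sit clear of WT, whereas a single ATG5 library stands out for s100a10a and S100B.

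The gene s100u had 36.1, 26.1 and 37.8 CPM in ATG5 livers, against 13.3, 30.3 and 15.1 CPM in WT livers. WT replicate 2 lay within the ATG5 range. The log2 fold was 0.77 ± 0.41 (edgeR adjusted p = 0.146), and without that WT replicate 1.22 (adjusted p = 0.0206). No other fit with 1 of the 6 libraries left out gave a call (adjusted p up to 0.333). The log2 folds of s100s and s100w were -0.46 ± 0.51 and -0.36 ± 0.64 (edgeR adjusted p = 0.555 and 0.684), with overlapping groups, and both turned positive with library sizes only.

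Neighbouring S100 genes had different calls. In the gene order of the RefSeq assembly GRCz12tu, used for order only, s100a10b, s100w, icn and icn2 are consecutive protein-coding genes. Between s100a10b and icn, which both rose, s100w had 1.27, 0.749 and 0.419 CPM in ATG5 livers, against 1.72, 0.898 and 0.516 CPM in WT livers, with wide overlap. Counts of icn were 74.4, 67.2 and 219 times those of s100w in the ATG5 libraries, against 6.46, 14.8 and 27.6 times in the WT libraries, a comparison made after the values were seen and not tested. In the other run of neighbours, s100a11, s100u and s100s, the last 2 were not called, and s100a11 failed the filter and was not tested. The annexin genes anxa1d, anxa1c and anxa1b also lie side by side, and all 3 were near 0 in both groups.

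Scaling of libraries cancels in the ratio of 2 paralogues within a library, except where a gene is near 0. There the 0.5 added to each count matters. This ratio was taken for the 5 pairs in which both genes were tested. Groups did not overlap in any of the 5. That count is not independent of the filter. Both anxa5a and anxa2b passed it only through the ATG5 group, where they were high. The share of non-overlapping groups among ratios of other gene pairs was not taken. For levels of single genes, which is another measure, 27.1% of all tested genes had every ATG5 library above WT and 22.2% every one below. Each ratio reached the smallest p that 3 against 3 libraries allow (exact 2-sided permutation p = 0.1, adjusted over the 5 pairs 0.1), so none can pass 0.05. The log2 ratio of ANXA11 ENSDARG00000077383 over ANXA11 ENSDARG00000002632 was -0.92, -0.89 and -0.92 in the ATG5 libraries, against -2.23, -1.79 and -1.48 in the WT libraries, a difference of 0.92 ± 0.22 (SE, n = 3 per group). The 3 ATG5 values were nearly the same, while WT spread more widely.

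For anxa5a over anxa5b the log2 ratio averaged -2.26 ± 1.33 in ATG5 and -6.20 ± 1.21 in WT (SD, n = 3 each), and for s100a10a over s100a10b it averaged -4.63 ± 1.43 in ATG5 and -2.29 ± 0.25 in WT. The first pair shifted towards its a member and the second towards its b member. In the WT libraries anxa5a had 1, 0 and 0 counts. The 0.5 added to each count therefore largely sets the WT ratios of that pair and the size of its shift. ANXA2 over anxa2b had a difference of -1.71 ± 0.96 and ANXA1 over anxa1b one of 1.48 ± 0.73 (SE), both resting on few counts of the b gene.

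**Figure D4:**
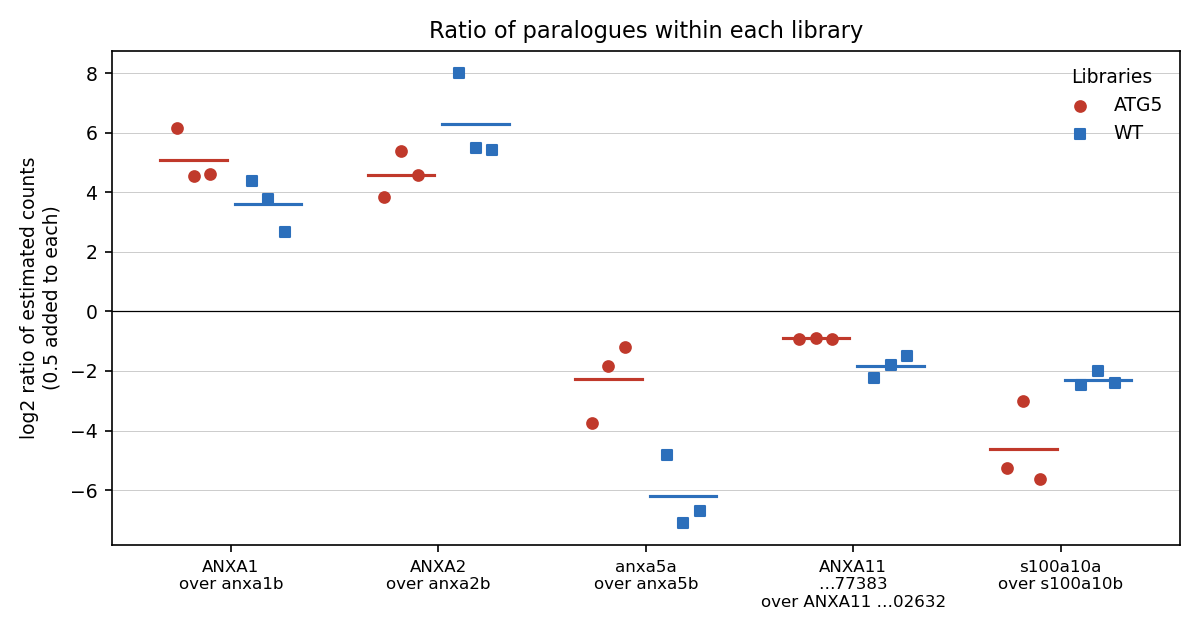
Log2 ratio of estimated counts of 2 paralogues within each library (0.5 added to each count), 1 point per library, ATG5 circles left of WT squares, bars at the group means. The ANXA11 ratio is -0.92 to -0.89 in ATG5 livers and -2.23 to -1.48 in WT livers.

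Genes of 5 partner lists, not all of them known partners of annexins or S100 proteins, were counted in the same fit. They are to be read beside the 17.3% of all tested genes called higher and the 13.3% called lower. In the plasminogen system, which the annexin A2 complex engages in mammals, 1 of 7 genes (14.3%) was called higher and 3 lower (median log2 fold -0.36). PLG, the plasminogen gene itself, averaged 1449 ± 179 CPM in ATG5 livers and 4018 ± 1036 CPM in WT livers (SD, n = 3 each). The inhibitor genes serpinf2a and serpinf2b had log2 folds of -1.10 ± 0.20 and -1.32 ± 0.27, while plaua, for the urokinase activator, averaged 3.43 ± 1.43 CPM in ATG5 livers and 0.326 ± 0.205 CPM in WT livers.

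In the membrane repair list 6 of 15 tested genes (40% of the list, against 17.3% of all tested genes) were called higher and none lower (median 0.54). Among them, the scaffold gene ahnak, whose protein binds S100A10 in mammals, had a log2 fold of 0.79 ± 0.08, and CAV1, the caveolae gene, one of 1.70 ± 0.40. The membrane-scission genes chmp4c and CHMP2B ENSDARG00000002190 had log2 folds of 4.09 ± 0.68 and 0.87 ± 0.06. Of these, chmp4c passed the filter only through the ATG5 group (2, 6 and 0 WT counts), as did some genes of the other lists. Counts of higher genes in these lists are therefore not independent of the filter. Of the penta-EF-hand proteins and calpains, calcium-driven proteins of which some bind annexins, 9 of 16 (56.2%) were called higher and 1 lower (median 0.99). SRI (sorcin) and GCA (grancalcin) had log2 folds of 1.64 ± 0.31 and 1.28 ± 0.17, the calpain gene capn2b one of 2.18 ± 0.17, and cast, for the calpain inhibitor calpastatin, was lower at -1.53 ± 0.25.

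Other EF-hand calcium sensors gave 8 higher (29.6%, against 17.3% of all tested genes) and 1 lower of 27 (median 0.27). The calmodulin genes calm1b and calm2a had log2 folds of 2.02 ± 0.27 and 1.40 ± 0.21, and EFHD2 one of 1.88 ± 0.31. GUCA1A ENSDARG00000101567, for a sensor of photoreceptors, was at -1.73 ± 0.33, and the other GUCA1A gene failed the filter. Phospholipase and eicosanoid genes gave 3 higher (25% of the list) and 1 lower of 12 (median 0.82). The formyl peptide receptor gene fpr1, whose human relatives bind annexin A1, averaged 2.65 ± 0.11 CPM in ATG5 livers and 0.14 ± 0.242 CPM in WT livers (SD, n = 3 each). PTGS2 ENSDARG00000010276, for an inducible cyclooxygenase, and alox12 had log2 folds of 3.37 ± 0.88 and 1.32 ± 0.18, and pla2g4f.2 one of -1.85 ± 0.26.

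Markers of other cells were counted in the same way, beside the 17.3% and 13.3% of all tested genes called higher and lower, and their part in the annexin and S100 results was not tested. Of the macrophage markers 10 of 11 tested were called higher (1398 to 1661 CPM in sum in ATG5 livers, 162 to 249 CPM in WT livers), with marco at a log2 fold of 4.81 ± 0.33. Most of the macrophage sum came from cd74a (means of 691 CPM in ATG5 and 134 CPM in WT livers) and cd74b (287 and 31 CPM). All 8 tested lymphocyte markers were called higher (46.8 to 125 CPM in ATG5 livers, 4.52 to 5.39 CPM in WT livers). Some of them passed the filter only through the ATG5 group, such as cd79a (3, 1 and 1 WT counts) and cd8a (0, 1 and 7 WT counts). That count is therefore not independent of the filter. Of the neutrophil markers 2 of 6 were called higher (55.5 to 58.2 CPM in ATG5 livers, 22.9 to 25.5 CPM in WT livers). Most of the neutrophil sum was srgn, which other blood cells also express. It averaged 48.9 ± 0.38 CPM in ATG5 livers and 19.9 ± 1.56 CPM in WT livers (SD, n = 3 each). The other called neutrophil marker was cxcr1, at 3.49 ± 0.22 CPM in ATG5 livers and 0.698 ± 0.278 CPM in WT livers. The log2 folds of lyz, npsn, MMP9 and CSF3R were -0.06, 0.01, 0.18 and 0.84, and these genes were not called. Stellate and fibroblast markers gave 3 higher of 12 (25% of the list; 135 to 164 CPM in ATG5 livers, 60.8 to 92.3 CPM in WT livers). Endothelial markers gave 1 lower of 5 tested (93.5 to 99.4 CPM in ATG5 livers, 136 to 160 CPM in WT livers), and no marker was called among 5 of erythrocytes, 9 of exocrine pancreas and 4 of intestine. Their summed CPM overlapped between groups for erythrocytes (45 to 337 in ATG5 livers, 124 to 608 in WT livers) and pancreas (393 to 592 in ATG5 livers, 84.7 to 2740 in WT livers), and for intestine ran from 12.5 to 31.1 in ATG5 livers and 8.73 to 10.7 in WT livers. At 0 in every library were FABP6 of the intestine list, CHMP2B ENSDARG00000068683, pvalb8, and 1 gene each of CAPN5 and ALOX5. At 0 in the WT libraries alone were 1 MPEG1 gene, 1 CAPN3 gene, pvalb1 and pvalb2. These had only 1, 1, 3 and 1 counts over the ATG5 libraries and failed the filter, so both groups were near 0.

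The 9 members that failed the filter averaged 0.00621 to 0.343 CPM in ATG5 livers. Among annexins, anxa1d had 15, 17 and 4 counts in the ATG5 libraries and none in the WT libraries, at least 6.17-fold higher than the same limit of 3 counts, and anxa13l had 15 counts over the ATG5 libraries and 1 over the WT libraries, a 7.71-fold ratio with an exact 95% counting interval of 1.19 to 324. The ratio for ANXA3 was 3.6 (0.462 to 162). ANXA6 had 15, 32 and 6 counts in the ATG5 libraries and 9, 4 and 2 in the WT libraries, and anxa1c averaged 0.123 CPM in both groups. Among S100 genes besides icn2, s100a11 had 8, 6 and 6 counts in the ATG5 libraries and 1, 3 and 0 in the WT libraries. S100A1, known from heart muscle, averaged 0.0353 ± 0.0275 CPM in ATG5 livers and 0.0598 ± 0.104 CPM in WT livers (SD, n = 3 each), and s100t had 1 count over the ATG5 libraries and 5 over the WT libraries, a ratio of 0.103 (0.00217 to 0.918). These intervals cover counting error only. The ratios against 3 counts take the ATG5 counts as exact, so they cover neither the counting error of those counts nor the spread between libraries.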

How the data were processed

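The authors deposited estimated counts per Ensembl gene for 6 libraries, from stranded total RNA libraries, per the labels' protocols. The submitters' processing notes give the build GRCz11 and the tools kallisto 0.45.0, FastQC 0.11.5 and sleuth 0.30.0, without roles. No source used here gives the strand setting, so antisense partners cannot be told apart. Reads shared by near-identical genes are split between them, and 18 of 31 members had whole estimated counts in all 6 libraries (within 0.0001).

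Sample descriptions tied each column to its sample, and titles gave the groups. Of 30628 gene IDs 23608 (77.1%) matched a symbol. Only the matched genes of the 15 partner and marker lists are counted. Some listed symbols were matched without their a or b suffix. Where several gene IDs shared a matched symbol, all of them were counted, so the lists hold some copies that were not listed. Counts were rounded, filtered with filterByExpr, scaled with TMM and tested with edgeR 4.0.16 in R 4.3.3 (glmQLFit and glmQLFTest, group only, Benjamini-Hochberg over all tested genes). Standard errors come from log2 CPM with a prior count of 2, which narrows them near 0 counts. A count of 3 corresponded to 0.067 to 0.0891 CPM before TMM scaling. No pair of libraries agreed within sampling noise by chi-square over genes. The members, lists and rule for named genes were chosen with earlier results of these data known. The rule gives per-library values for called members with a log2 fold of at least 1 and 1 CPM or more on average in the higher group, and for paralogue pairs, and names up to 4 called genes per list with the smallest p, or the 2 most abundant if none was called; not all are named. The 2 gene IDs named ANXA11 could not be assigned to anxa11a and anxa11b. The code was tested on simulated counts. Alternatives used RLE, upper-quartile or no factors, other filters, DESeq2 1.42.0, limma-voom (limma 3.58.1), a replicate block, a threshold of 0.01, leaving out the 50 most abundant and mitochondrial genes, and leaving out each library. Figures were drawn with matplotlib 3.10.9.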

Additional observations from a re-analysis of the deposited data

How the results depend on the processing

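Of the 10 called members, 6 (icn, s100a10b, ANXA4, anxa3b, anxa5a and anxa5b) were called in the same direction under all 16 alternatives. The number of annexins called higher was 9 with library sizes only and 4 to 5 when single libraries were left out. The number called lower was 0 with library sizes only, no filter, the replicate block and the threshold of 0.01, and 0 with any library left out. S100 genes called higher numbered 2 with the replicate block and at 0.01, and 3 to 5 with a library left out. Those called lower numbered 0 with library sizes only, the replicate block and at 0.01, and 0 to 1 with a library left out. With library sizes only, 53.3% of all tested genes were called higher and 2.84% lower. The shares of all tested genes called under the other alternatives are not given here. Changes in these counts therefore cannot be read as particular to the members.

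Same-numbered libraries did not deviate together (correlations of -0.062, -0.113 and 0.0329), so the numbers are not taken to pair the samples; with the replicate block s100v1, s100v2, S100Z and the ANXA11 call were lost (adjusted p = 0.0708, 0.0578, 0.095 and 0.111). The log2 folds that turned sign were ANXA11 ENSDARG00000002632 (0.35), s100s (0.495) and s100w (0.598) with library sizes only, and, over the libraries left out in turn, s100s (-0.735 to 0.194), s100w (-0.866 to 0.183), s100a10a (-0.556 to 1.26) and ANXA1 (-0.0727 to 0.921). Positive values came without WT replicate 3 for s100s and WT replicate 1 for s100w, and negative ones without ATG5 replicate 2 for s100a10a and ATG5 replicate 1 for ANXA1; the cause was not tested. Of 344 such values for single members, 301 kept direction and side of the threshold, 27 lost the call and 9 gained one.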
